A study of Mus musculus with 16 samples.

Results

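The 9 genes described here are the ligands Il6, Osm, Lif and Il10, the receptor chains Il6ra, Il6st and Il10ra, the transcription factor Stat3 and the feedback inhibitor Socs3. They were chosen by name as the IL-6 and IL-10 cytokine axis through Stat3, and all 9 are among the 20200 genes of the deposited count table. Of the 9, 8 reached a group mean of 3 CPM (reads of the gene scaled to the total of its library) in at least 1 of the 8 groups and were tested, and Il10 did not. The counts come from bulk RNA-seq of 4 myeloid populations sorted from the interface tissue between tendon graft and bone after anterior cruciate ligament reconstruction (ACLR) in mice, on day 1 and day 14 after surgery. All groups came from 12-week-old male wild-type C57BL/6 mice that had undergone ACLR, so there was no group without surgery. Each of the 16 libraries was made from the cells of several pooled mice.

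The sorted cells were live and CD45+. CD9+ macrophages were Lin-, Ly6G-, CD11b+, F4/80+ and CD9+, whether or not they bore CX3CR1, and CX3CR1+ macrophages shared these gates but were CX3CR1+ and CD9-. F4/80- myeloid cells were Lin-, Ly6G-, CD11b+ and F4/80-, and neutrophils were Ly6G+ and Ly6C+. Each population had 2 libraries on each day. The levels below are CPM scaled with TMM factors, fold changes are on the log2 scale with their standard error (SE), and a gene was called where edgeR's quasi-likelihood test gave a Benjamini-Hochberg adjusted p under 0.05 over the 11998 genes tested and the absolute log2 fold change was at least 1. In sorted pools, fewer cells that express a gene and less of its RNA per cell cannot be told apart.

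As background, IL-6, oncostatin M (Osm) and LIF form a cytokine family because their receptors share the signalling chain gp130, encoded by Il6st. IL-6 binds the chain encoded by Il6ra, on the cell surface or in shed form, before it engages gp130, whereas IL-10 acts through its own receptor chains, of which Il10ra encodes the ligand-binding one. Both kinds of receptor use Janus kinases to phosphorylate STAT3, which enters the nucleus and induces target genes, among them Socs3. SOCS3 protein binds gp130 and limits further IL-6 signalling, but it does not limit the IL-10 receptor in the same way. In macrophages IL-10 is known for restraining inflammatory gene expression, and IL-6 is known as an early cytokine of tissue injury.

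The promoters of Il6 and Socs3 are shown because Socs3 fell in all 4 populations and Il6 rose in 2 of them, and because motifs of their known regulators can be looked for there. Both were read from the RefSeq promoter table (GRCm38.p6), 5′ to 3′ on the gene's strand and without the bases that overlap an exon, and capitals mark matches to the motifs searched on both strands. Il6 (ENSMUSG00000025746, chromosome 5, 30013114 to 30019981, plus strand) is shown over the bases before its start, chr5:30012864-30013113. Socs3 (ENSMUSG00000053113, chromosome 11, 117966079 to 117970047, minus strand) is shown over chr11:117969452-117969616, which lies upstream of the RefSeq start and inside the longer Gencode gene.
Il6: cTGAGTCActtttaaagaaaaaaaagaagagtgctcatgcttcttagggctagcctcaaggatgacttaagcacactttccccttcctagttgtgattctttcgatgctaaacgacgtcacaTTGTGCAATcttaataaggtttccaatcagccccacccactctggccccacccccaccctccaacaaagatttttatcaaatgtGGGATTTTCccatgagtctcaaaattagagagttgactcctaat
Socs3: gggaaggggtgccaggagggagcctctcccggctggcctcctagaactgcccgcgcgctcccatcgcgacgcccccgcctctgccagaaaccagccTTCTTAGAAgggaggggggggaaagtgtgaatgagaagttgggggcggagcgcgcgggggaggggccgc
In Il6 the capitals are, in order, a match to the AP-1 motif TGANTCA, 249 to 243 bases before the start, a match to the C/EBP motif TTNNGCAAT, 128 to 120 bases before it, and a match to the NF-kappaB motif GGGNNTTTC, 44 to 36 bases before it. In Socs3 they are a match to the STAT motif TTCNNNGAA, 154 to 146 bases before the start. The matches do not overlap. Of the 32851 RefSeq promoters, the 250 bases before the start hold the STAT motif in 7.02%, the NF-kappaB motif in 3.72%, the C/EBP motif in 1.93% and the AP-1 motif in 6.75%. Of the 6 members matched in the table, 1 held the STAT motif in these bases, and Lif held the AP-1 motif 228 to 222 bases before its start. Osm, Il10 and Il10ra were not matched. A match describes the letters and does not show binding.

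Total counts were 10587857 to 19814119 on day 1 and 9233952 to 12721779 on day 14. The 2 CD9+ libraries of day 1 were the least alike of the 8 pairs (Pearson r of log2 CPM across genes 0.935, against 0.976 to 0.988 in the others). Leaving out either one changed calls of members, also in comparisons without that group, since all groups share 1 estimate of the spread. The calls lost without replicate 2 are named below. In these 2 libraries the 7 neutrophil markers summed to 11600 and 3570 CPM. In CD9+ macrophages on day 14 the sums were 13000 and 8480 CPM, whereas CX3CR1+ macrophages had 446 to 537 CPM over both days. Adgre1, which encodes F4/80, stood at 139 to 180 CPM in group means of both macrophage populations and 9.02 to 11.1 in F4/80- cells. The 8 macrophage and monocyte markers summed to 1140 to 2330 CPM in CD9+ and 2890 to 3350 in CX3CR1+ macrophages. Their sums were 480 to 544 CPM in F4/80- cells and 196 to 650 in neutrophils. Cd9 itself stood at 142 to 183 CPM in CD9+ and 6.48 to 21 in CX3CR1+ macrophages. It was not particular to the CD9+ gate, with 107 to 121 CPM in F4/80- cells and 345 to 676 in neutrophils. F4/80- cells also carried neutrophil transcripts, the 7 neutrophil markers summing to 21700 to 27800 CPM there against 29700 to 69900 in neutrophils. The surface marker transcript Ly6g, however, was at 8.28 and 9.14 CPM against 103 and 276. In CD9+ macrophages the 5 eosinophil markers rose from a sum of 503 to 566 CPM on day 1 to 5840 to 9420 on day 14, beside every change over time given for that population, and their part in those changes was not tested.

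**Figure D1:**
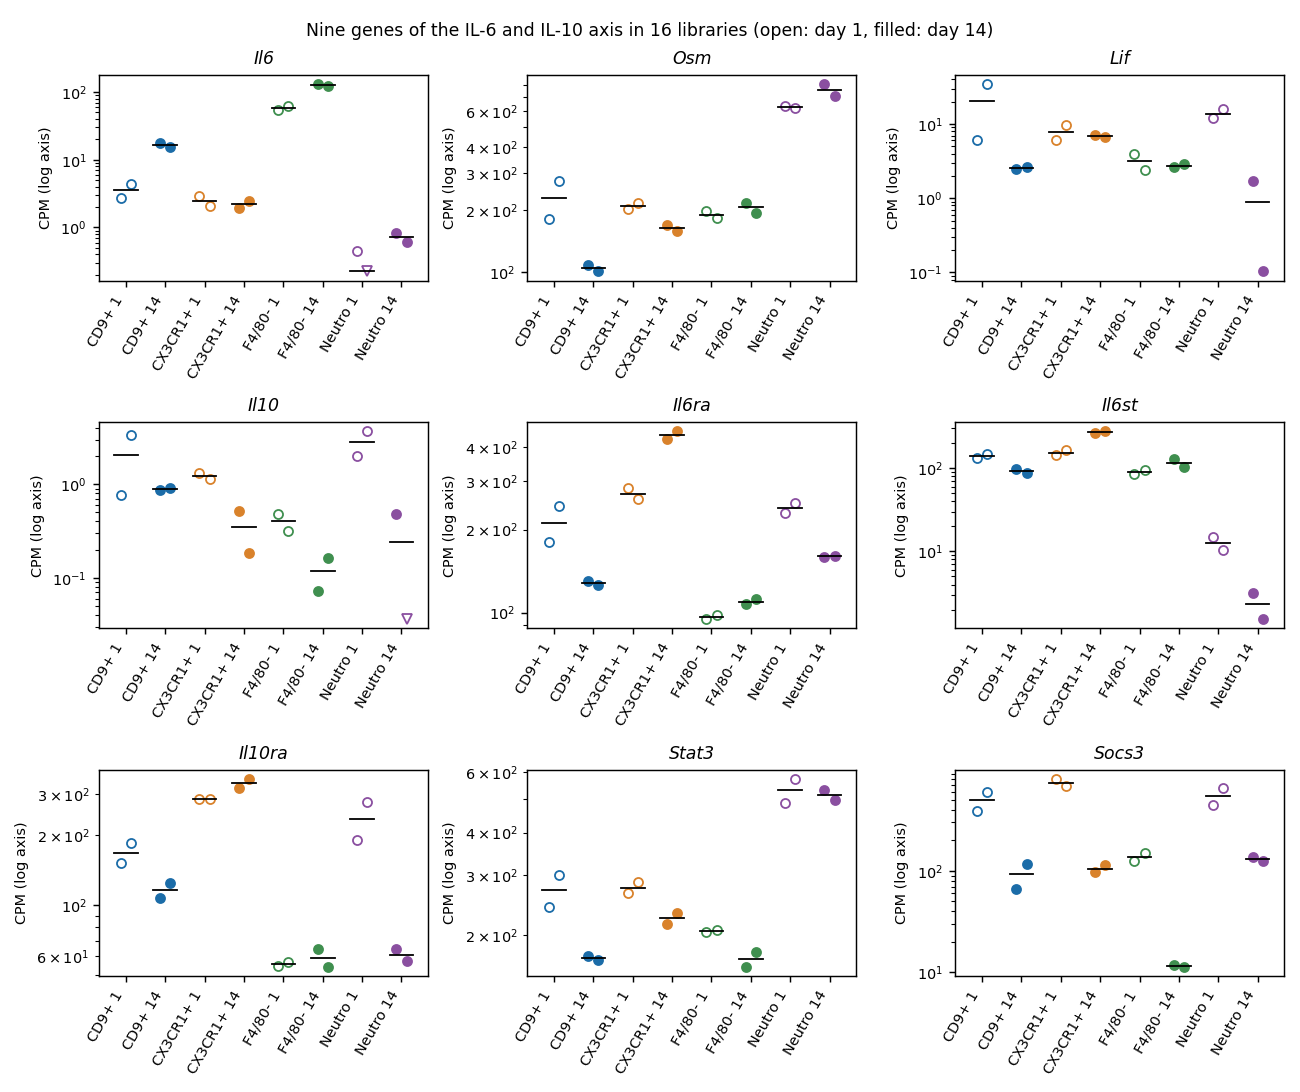
Level of each of the 9 genes in CPM (log axis) in the 16 libraries, by population and day; each point is a library, lines are group means, open points are day 1 and filled points day 14, and a triangle marks a library with 0 counts, drawn below the lowest value. Il6 was highest in F4/80- cells, Osm and Stat3 in neutrophils, and Socs3 was lower on day 14 in every population.

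From day 1 to day 14 Socs3 fell in all 4 populations, and it was the only member called in all of them. CD9+ macrophages had 4 of the 8 tested members called, Il6 higher and Osm, Lif and Socs3 lower, against 8.23% of all genes tested. CX3CR1+ macrophages had 1 called, Socs3, which fell, against 5.86% called and 3.47% called lower. F4/80- cells had 2 called, Il6 higher and Socs3 lower, against 3.25%. Neutrophils had 4 called, all lower (Lif, Il6st, Il10ra and Socs3), against 14.1% called and 10.9% called lower. The median log2 fold change of the 8 members was -0.69 in CD9+ macrophages, -0.18 in CX3CR1+ macrophages, 0.10 in F4/80- cells and -1.26 in neutrophils, where the medians over all genes were 0.00, 0.03, -0.02 and -0.02.

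**Figure D2:**
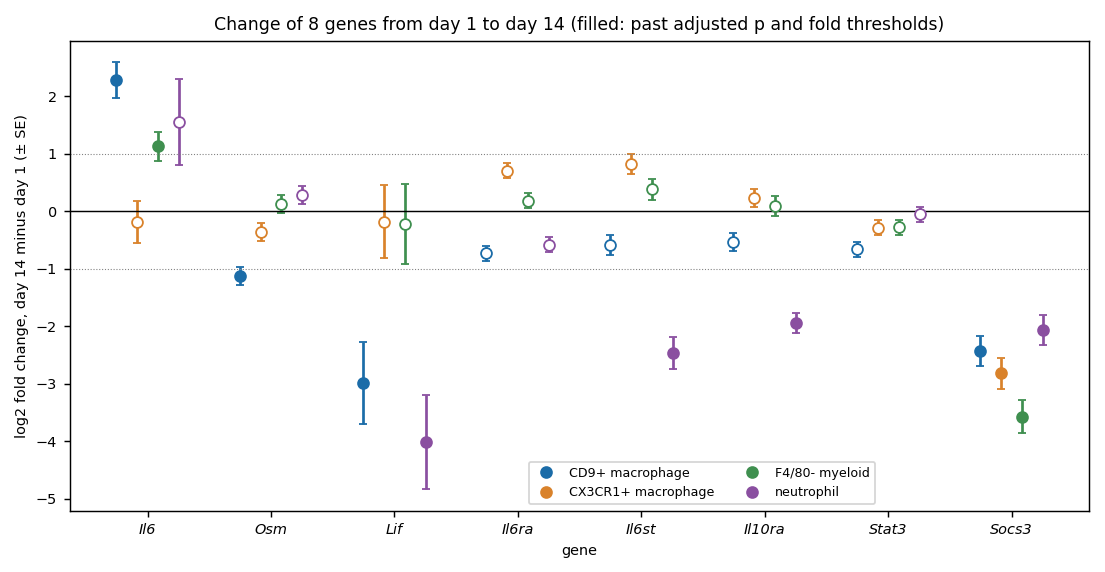
Log2 fold change from day 1 to day 14 with its SE (2 libraries against 2) for the 8 tested genes in each population; filled points passed the thresholds on adjusted p and fold change, and dotted lines mark a log2 fold change of 1 in either direction. The 4 Socs3 points lie between -3.57 and -2.07, while Il6st lies at 0.82 in CX3CR1+ macrophages and at -2.47 in neutrophils.

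Among the ligands, Il6 was a transcript of the F4/80- cells and, on day 14, of the CD9+ macrophages. In F4/80- cells it stood at 54.0 and 62.0 CPM on day 1 and at 132 and 122 on day 14, and it rose by 1.13 ± 0.25 (adjusted p = 0.013, edgeR). In CD9+ macrophages it stood at 2.75 and 4.32 CPM on day 1 and at 17.9 and 15.7 on day 14, a rise of 2.28 ± 0.31 (adjusted p = 0.00018, edgeR). No library of day 1 overlapped with one of day 14 in either population. The call in F4/80- cells was lost when any 1 of its 4 libraries was left out (adjusted p 0.067 to 0.15) and with glmTreat, whereas that in CD9+ cells was kept in every fit that held the gene.

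CX3CR1+ macrophages had 2.89 and 2.08 CPM of Il6 on day 1 and 1.91 and 2.5 on day 14, and these overlapped. Neutrophils had 6 reads and 0 reads on day 1 and 7 and 6 on day 14, the library at 0 allowing up to 0.262 CPM. In the order of the 8 groups, F4/80- cells on day 14, F4/80- cells on day 1 and CD9+ macrophages on day 14 each differed from the next (adjusted p 0.00018 to 0.013, edgeR), while CD9+ macrophages on day 1 and CX3CR1+ macrophages on either day could not be told apart. The rise in CD9+ macrophages exceeded the change in CX3CR1+ macrophages by 2.46 ± 0.47 (adjusted p = 0.0095, edgeR), a call lost with only the libraries compared (adjusted p = 0.069) and without replicate 1 of CX3CR1+ macrophages on day 1 (0.062) or day 14 (0.066).

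Markers of other cells moved with Il6. The 7 basophil and mast cell markers (Cpa3, Fcer1a, Gata2, Kit, Mcpt8, Ms4a2 and Prss34), all measured, summed to 1000 to 1190 CPM in F4/80- cells on day 1 and 1790 to 1950 on day 14, and to 110 to 195 and 312 to 398 CPM in CD9+ macrophages. In neutrophils the sums were 21.8 to 27.8 and 61.7 to 66.7 CPM, mostly Kit on day 14, and in CX3CR1+ macrophages 1.23 to 1.88 and 2.61 to 2.68, with Fcer1a at 0 counts there on day 1. Across the 16 libraries the sum correlated with Il6 at r = 0.814 on the log2 scale, and the sums of 5 dendritic cell markers and 3 endothelial markers did so at 0.804 and 0.862; the endothelial sum was mostly Pecam1, at 48.1 and 60.6 CPM in F4/80- cells. The basophil and mast cell, dendritic cell and endothelial lists were the highest of the marker lists compared. The others ran from -0.283 for erythroid to 0.602 for platelet markers, with 0.588 for B cell, 0.236 for neutrophil and 0.163 for eosinophil markers. All lists come from the same libraries, and the part of these cells in the Il6 level was not tested. The tested genes most like Il6 across the 16 libraries were Dtl (r = 0.980) and Orc6 (r = 0.977).

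**Figure D3:**
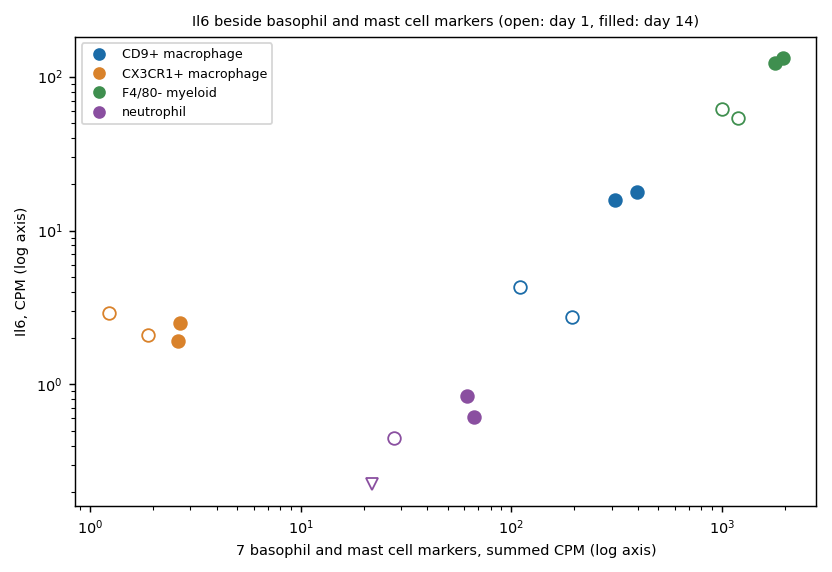
Il6 (CPM, log axis) against the summed CPM of 7 basophil and mast cell markers (log axis) in each of the 16 libraries, open for day 1 and filled for day 14; the triangle is a neutrophil library with 0 counts of Il6, drawn below the lowest value. F4/80- cells are highest on both axes, and CX3CR1+ macrophages hold 1.91 to 2.89 CPM of Il6 at marker sums below 3 CPM.

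Osm, a ligand made by activated myeloid cells, was highest in neutrophils. It stood at 637 and 619 CPM there on day 1 and at 810 and 710 on day 14, above every library of the other populations, which held 101 to 277 CPM. The change over time in neutrophils was 0.28 ± 0.16 (adjusted p = 0.22, edgeR). Against neutrophils, Osm had log2 differences of -1.73 to -1.46 in the 3 other populations on day 1 and of -2.86 to -1.88 on day 14, each called.

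In CD9+ macrophages Osm stood at 181 and 277 CPM on day 1 and at 108 and 101 on day 14, and it fell, at -1.13 ± 0.16 (adjusted p = 0.00035, edgeR). Without replicate 2 of day 1 the change was -0.79 and was not called. The call was also lost with scaling by library size alone (-0.92), with the replicate block (-0.98) and with only the libraries compared (adjusted p = 0.054, edgeR). CX3CR1+ macrophages went from 202 and 216 CPM to 169 and 158, and F4/80- cells from 197 and 182 to 217 and 194, neither called. The change in CD9+ macrophages minus that in F4/80- cells was -1.25 ± 0.23 (adjusted p = 0.013), and minus that in neutrophils it was -1.40 ± 0.23 (adjusted p = 0.0012, both edgeR). The first of these was lost in 6 of 27 alternative fits, among them that without replicate 2 of CD9+ macrophages on day 1 (-0.91), and the second in 0. Nearest to Osm in pattern were Cdk2ap2 (r = 0.974) and Prr14 (r = 0.971).

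Lif, the leukemia inhibitory factor gene, was low and uneven. Neutrophils had 11.9 and 15.8 CPM on day 1 and 1.68 and 0.103 on day 14, the last being 1 read, and its log2 fold change was -4.01 ± 0.82 (adjusted p = 0.0020, edgeR). CD9+ macrophages had 6.06 and 34.7 CPM on day 1, from 86 and 330 reads, and 2.49 and 2.63 on day 14. The fitted change there was -2.98 ± 0.71 (adjusted p = 0.0095, edgeR), but without replicate 2 of day 1 it was -1.24 with an adjusted p of 0.16, and the call was also lost without either library of day 14 (adjusted p = 0.087 and 0.064), with the replicate block (0.076) and with only the libraries compared (0.087). CX3CR1+ macrophages kept 6.08 and 9.69 CPM on day 1 and 7.12 and 6.75 on day 14, and F4/80- cells 3.99 and 2.37 and then 2.61 and 2.85. The neutrophil change differed from those in CX3CR1+ macrophages by 3.83 ± 1.05 (adjusted p = 0.026) and in F4/80- cells by 3.79 ± 1.08 (adjusted p = 0.036, both edgeR). These calls were lost with glmTreat (adjusted p = 0.055 and 0.075) and in 5 and 8 of the 16 leave-one-out fits, where the values ran from 2.85 to 6.78 and from 2.82 to 6.74. In the order of the groups no neighbouring pair was called for Lif, although 3 of the 7 pairs did not overlap, among them neutrophils above CX3CR1+ macrophages on day 1. The genes most like it were F10 (r = 0.914) and Tex14 (r = 0.905).

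Il10 had 214 reads in all 16 libraries and missed the level for testing. Its highest values were 3.67 and 2.02 CPM in neutrophils on day 1 and 3.37 CPM in replicate 2 of the CD9+ macrophages on day 1, where replicate 1 had 0.775. On day 14 no library exceeded 0.909 CPM, and 1 neutrophil library had 0 reads, which allows up to 0.308 CPM. In the fit without a filter on low counts the neutrophil change was -3.54 (adjusted p = 0.028, edgeR), from 27 and 42 reads on day 1 to 4 and 0 on day 14. The other 3 changes over time had adjusted p between 0.37 and 0.58 in that fit.

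The receptor chains parted neutrophils from the other cells, because neutrophils had Il6ra but little Il6st. Il6st, which encodes gp130, stood at 14.9 and 10.3 CPM in neutrophils on day 1 and at 3.12 and 1.54 on day 14, from 199, 118, 26 and 15 reads. In the other 12 libraries it ran from 84.1 to 276 CPM. It was lower in neutrophils by 2.82 to 3.60 than in the other populations on day 1 and by 5.34 to 6.89 on day 14, each called, and it fell over time in neutrophils, at -2.47 ± 0.28 (adjusted p = 1.1e-05, edgeR).

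In CX3CR1+ macrophages Il6st went from 144 and 163 CPM to 266 and 276, a change of 0.82 ± 0.18 whose adjusted p was 0.0080 (edgeR) and which stayed below the fold threshold. In CD9+ macrophages it went from 132 and 149 to 97.5 and 88.3 CPM (-0.59 ± 0.18, adjusted p = 0.039, edgeR), and in F4/80- cells from 84.1 and 94.4 to 130 and 102 CPM. The change in CD9+ macrophages minus that in CX3CR1+ macrophages was -1.41 ± 0.26 (adjusted p = 0.0083, edgeR), a call lost with glmTreat (adjusted p = 0.065) and without replicate 1 of CX3CR1+ macrophages on day 1 (0.051). On day 14 Il6st was 2.92-fold higher in CX3CR1+ than in CD9+ macrophages (adjusted p = 1.8e-05, edgeR), where on day 1 the libraries overlapped. Closest to Il6st in pattern were Itga1 (r = 0.994) and Cd48 (r = 0.992).

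Il6ra, the IL-6 binding chain, was present in every population. Neutrophils had 230 and 249 CPM on day 1 and 159 and 161 on day 14. CX3CR1+ macrophages had 283 and 258 CPM and then 426 and 455, the highest group, while CD9+ macrophages went from 180 and 243 to 130 and 126. F4/80- cells had 94.7 and 98.2 CPM and then 107 and 112. The change was -0.73 ± 0.13 in CD9+ macrophages (adjusted p = 0.0020), 0.70 ± 0.13 in CX3CR1+ macrophages (adjusted p = 0.0024) and -0.58 ± 0.13 in neutrophils (adjusted p = 0.0045, all edgeR), each past the test but under the fold threshold, and DESeq2 called none either.

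The 2 macrophage populations moved apart in Il6ra, the change in CD9+ minus that in CX3CR1+ macrophages being -1.43 ± 0.19 (adjusted p = 0.00088, edgeR). On day 1 CD9+ minus CX3CR1+ macrophages was -0.36 ± 0.13 (adjusted p = 0.081), and on day 14 CX3CR1+ macrophages had 3.45-fold more (adjusted p = 1.7e-07, both edgeR). Against F4/80- cells on day 1, Il6ra was higher in the other 3 populations by 1.13 to 1.49, and without replicate 2 of CD9+ macrophages the difference for these was 0.90, under the fold threshold. F4/80- cells minus neutrophils ran from -1.37 to -0.70 over 27 alternative fits, and that call was lost in 1. Gm42809, a gene on the other strand, shares 242 exon bases with Il6ra, and the sources do not state whether reads were counted by strand. The genes most like Il6ra were Zfp710 (r = 0.966) and Parp14 (r = 0.959).

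Il10ra, the IL-10 binding chain, was highest in CX3CR1+ macrophages, at 286 and 285 CPM on day 1 and 319 and 348 on day 14. In neutrophils it stood at 191 and 277 CPM on day 1 and at 64.3 and 57.5 on day 14, a change of -1.94 ± 0.17 (adjusted p = 8.6e-07, edgeR). On day 1 CX3CR1+ macrophages minus neutrophils was 0.28 ± 0.16, which was not called (adjusted p = 0.13, edgeR). CD9+ macrophages went from 152 and 184 to 107 and 124 CPM (-0.54 ± 0.16, adjusted p = 0.036, edgeR), and F4/80- cells held 54.8 and 57.0 and then 64.4 and 54.3. The neutrophil change was lower than each of the other 3 by 1.41 to 2.17 (adjusted p 2.5e-05 to 0.0014, edgeR). Neutrophils, among the higher groups on day 1, could not be told apart from F4/80- cells on day 14 (adjusted p = 0.86, edgeR). Closest to Il10ra in pattern were Atf3 (r = 0.976) and Gpr132 (r = 0.966).

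Per kilobase of exon, which allows the chains to be compared with each other, Il6ra exceeded Il6st by 1.05 to 2.52 times in the 12 libraries of the 3 other populations. The neutrophil ratio was far higher, at 19.8 and 30.9 on day 1 and at 65.5 and 135 by day 14. Il10ra exceeded Il6ra in every library of CD9+, CX3CR1+ and F4/80- cells and in neutrophils on day 1, with Il6ra at 0.363 to 0.838 of Il10ra. In the neutrophils of day 14 the ratio was 1.00 and 1.14.

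**Figure D4:**
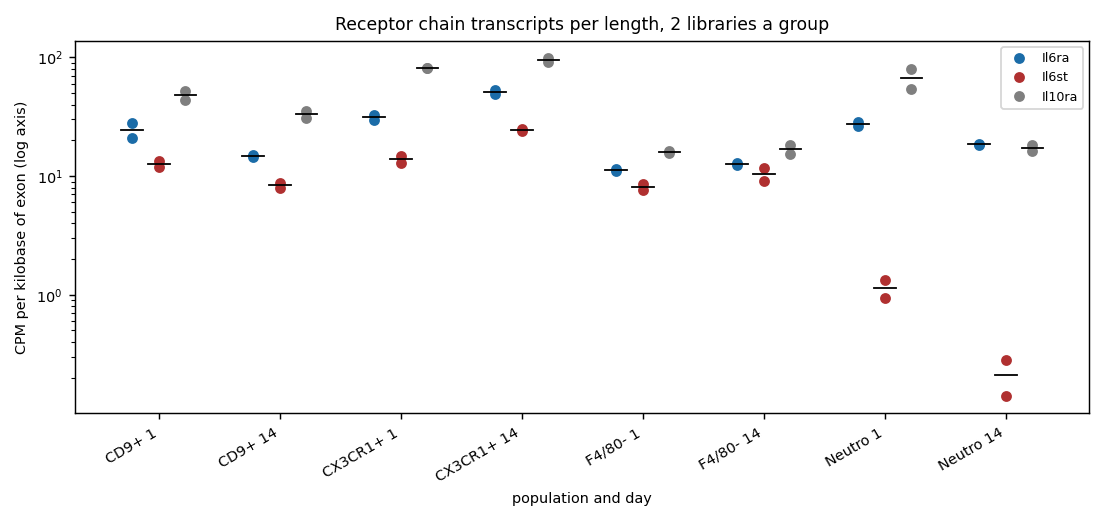
Transcripts of 3 receptor chains in CPM per kilobase of exon (log axis) by population and day, with a point for each library and lines for group means. In neutrophils Il6st lies at group means of 1.14 and 0.210 while Il6ra lies at 27.7 and 18.5, and Il10ra falls from 66.9 to 17.4.

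Stat3, the factor on which these receptors converge, was highest in neutrophils, and its change over time stayed under the fold threshold in all 4 populations. Neutrophils had 489 and 574 CPM on day 1 and 533 and 497 on day 14, a change of -0.05 ± 0.13 (adjusted p = 0.83, edgeR). CX3CR1+ macrophages went from 266 and 286 to 216 and 233 CPM, and F4/80- cells from 205 and 207 to 162 and 179. CD9+ macrophages went from 242 and 300 to 174 and 169, with the largest change of the 4, -0.66 ± 0.13 (adjusted p = 0.0031, edgeR). At an unadjusted p under 0.05 the change passed in 2 of the 4 populations, and neither edgeR nor DESeq2 called any.

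All 12 libraries of the other populations lay at 162 to 300 CPM of Stat3, below every neutrophil library. Against neutrophils Stat3 had log2 differences of -1.60 to -1.20 on day 14, each called, and on day 1 of -1.37 in F4/80- cells, called, and of -0.95 and -0.97 in the macrophages, under the fold threshold. Without TMM scaling the difference of CX3CR1+ macrophages from neutrophils on day 14 was -0.69. That call was lost in 3 of 27 alternative fits. The call of F4/80- cells against neutrophils on day 1 was lost in 1 of 27, with values of -1.48 to -0.76. Stat3 shares 72 exon bases with Stat5a on the other strand. The genes most like it were Dnm2 (r = 0.986) and Fbxl5 (r = 0.983).

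Socs3, the feedback inhibitor and Stat3 target, had its highest levels on day 1 in CX3CR1+ macrophages, at 805 and 681 CPM, followed by neutrophils at 442 and 653 and CD9+ macrophages at 391 and 601. F4/80- cells had 126 and 149 CPM. On day 14 the levels were 96.6 and 114 in CX3CR1+ macrophages, 137 and 124 in neutrophils, 66.4 and 118 in CD9+ macrophages and 11.7 and 11.4 in F4/80- cells. In each population every library of day 14 lay below every library of day 1.

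The log2 fold change of Socs3 was -3.57 ± 0.29 in F4/80- cells (11.8-fold lower, adjusted p = 4.7e-06), -2.82 ± 0.27 in CX3CR1+ macrophages (7.05-fold, adjusted p = 6.8e-06), -2.43 ± 0.26 in CD9+ macrophages (5.38-fold, adjusted p = 3.2e-05) and -2.07 ± 0.26 in neutrophils (4.19-fold, adjusted p = 2.9e-05, all edgeR). The 4 calls held in every one of the 27 alternative fits. The falls differed past the test only between F4/80- cells and neutrophils, at -1.50 ± 0.37 for F4/80- cells minus neutrophils (adjusted p = 0.017, edgeR), and that call was lost with glmTreat and in 5 of the leave-one-out fits. In the order of levels on day 1, CX3CR1+ macrophages lay above neutrophils without overlap but the difference was not called (0.44, adjusted p = 0.12, edgeR), neutrophils overlapped with CD9+ macrophages, and F4/80- cells were lower than each, the macrophages exceeding them by 1.85 and 2.44. On day 14 F4/80- cells were again lowest, the macrophages exceeding them by 2.99 and 3.19 and their difference from neutrophils being -3.50.

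Per kilobase of exon, Socs3 stood at 5.32 to 9.99 times Stat3 in the macrophage libraries of day 1 and at 1.26 to 2.31 times on day 14. In neutrophils the ratio went from 2.98 and 3.75 to 0.846 and 0.826, and in F4/80- cells from 2.02 and 2.36 to 0.239 and 0.210. The ratio was lower on day 14 in all 4 populations without overlap. The genes most like Socs3 were Piwil2 (r = 0.937) and Fgd6 (r = 0.928).

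Between the populations on day 1, CD9+ and CX3CR1+ macrophages had none of the 8 members called with edgeR, against 8.23% of all genes. DESeq2 called none of them either, and 1230 genes in all. At an unadjusted p under 0.05, 4 of the members passed, and the share of all genes at that threshold was not counted. By day 14 these populations had 4 called, against 14.2%, with Il6 higher in CD9+ macrophages and Il6ra, Il6st and Il10ra higher in CX3CR1+ macrophages. Against F4/80- cells, CD9+ macrophages had 5 called on day 1 (15.4%) and 2 on day 14 (7.7%), and CX3CR1+ macrophages 4 (21.1%) and 5 (21.5%), the percentages being the share of all genes called in the same comparison. In these 4 comparisons Il6 was lower in the macrophages, at log2 differences of -5.85 to -2.92, and Socs3 higher by 1.85 to 3.19. Of the 5 calls of CD9+ macrophages against F4/80- cells on day 1, those of Lif (2.67) and Il6ra were lost without replicate 2 of CD9+ macrophages, Lif then being at 0.93 (adjusted p = 0.23, edgeR).

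Against neutrophils, CD9+ macrophages had 3 members called on day 1 (49.5%) and 4 on day 14 (49.5%), CX3CR1+ macrophages 3 (51%) and 7 (48%), and F4/80- cells 8 (49%) and 5 (48.7%). Il6 and Il6st were higher and Osm lower than in neutrophils in all 6 of these comparisons, the call of Il6 in CX3CR1+ macrophages on day 14 being lost without replicate 2 of either group (adjusted p = 0.055 and 0.085, edgeR). Socs3 was the 1 member not called in CX3CR1+ macrophages against neutrophils on day 14, at -0.31 ± 0.25 (adjusted p = 0.29, edgeR).

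Set against each other, the changes over time of 2 populations differed past the thresholds 15 times, 3 between CD9+ and CX3CR1+ macrophages (against 2.28% of all genes), 1 between CD9+ macrophages and F4/80- cells (1.69%), 3 between CD9+ macrophages and neutrophils (8.03%), 4 between CX3CR1+ macrophages and neutrophils (9.09%) and 4 between F4/80- cells and neutrophils (7.73%). Between CX3CR1+ macrophages and F4/80- cells none was called with edgeR, where 1.01% of all genes were. With DESeq2 1 was called, and 205 genes in all. At an unadjusted p under 0.05, 2 of the members passed, and the share of all genes at that threshold was not counted. These comparisons share libraries with each other.

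The other genes of the pathway were taken from a list of 46 further ligands, receptors, kinases, regulators, response genes and STAT factors, of which 38 were in the table and 34 were tested. Over time 1 rose and 7 fell in CD9+ macrophages, where 4.75% of all genes rose and 3.48% fell. In CX3CR1+ macrophages 2 rose and 2 fell (2.39% and 3.47% of all genes), in F4/80- cells 1 rose and 2 fell (1.01% and 2.24%), and in neutrophils 0 rose and 10 fell (3.15% and 10.9%). Leaving out either library of day 1 changed the counts in CD9+ macrophages. The median log2 fold changes of the 34 genes were -0.28, 0.09, 0.02 and -0.46. Il4ra, the IL-4 receptor chain and an IL-10 response gene in macrophages, fell in all 4 populations. It went from 255 and 392 CPM to 65.8 and 71.4 in CD9+ macrophages (-2.24 ± 0.17, adjusted p = 1.5e-06), from 269 and 298 to 79.0 and 82.2 in CX3CR1+ macrophages (-1.81 ± 0.17, adjusted p = 6.4e-06), from 108 and 114 to 49.5 and 52.8 in F4/80- cells (-1.12 ± 0.17, adjusted p = 0.00083) and from 549 and 619 to 158 and 172 in neutrophils (-1.82 ± 0.17, adjusted p = 1.2e-06, all edgeR).

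Of the 11 genes listed as Stat3 and IL-10 response genes, 4 fell and 0 rose in CD9+ macrophages, namely Il4ra, Nfil3 (-1.35 ± 0.18), Bcl3 (-1.27 ± 0.20) and Sbno2 (-1.24 ± 0.16), where Nfil3, Bcl3 and Sbno2 encode transcriptional regulators. Of all genes, 3.48% fell and 4.75% rose in CD9+ macrophages. In neutrophils 3 fell, Il4ra, Nfil3 (-1.40 ± 0.18) and Bcl3 (-1.39 ± 0.19), where 10.9% of all genes fell. In CX3CR1+ macrophages Nfil3 stayed at 178 and 193 CPM in group means, and the change in CD9+ minus that in CX3CR1+ macrophages was -1.47 ± 0.26 (adjusted p = 0.0059, edgeR). Cebpb, which encodes a C/EBP factor, rose in CX3CR1+ macrophages by 3.03 ± 0.68 (adjusted p = 0.0078) and in F4/80- cells by 3.01 ± 0.68 (adjusted p = 0.016, both edgeR), from 85.7 and 142 CPM to 858 and 1010 in the former. Its 2 neutrophil libraries of day 1 lay far apart, at 214 and 2490 CPM. In CD9+ macrophages its group means went from 228 to 509 CPM, which was not called. Cebpd, also among the 11, had higher group means on day 14 in all 4 populations and was called in none. It went from 65.8 to 120 CPM in CD9+ macrophages and from 284 to 539 in neutrophils.

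Of the other receptors, Il21r, which encodes the IL-21 receptor, fell in the 3 populations outside neutrophils, at -2.25 ± 0.37 in CX3CR1+ macrophages, -1.65 ± 0.36 in CD9+ macrophages and -1.38 ± 0.39 in F4/80- cells. Lifr, which encodes the LIF receptor chain, fell in CD9+ macrophages (-1.41 ± 0.22) and in neutrophils (-1.29 ± 0.32), and stood at group means of 60.8 and 55.9 CPM in CX3CR1+ macrophages. Osmr, the oncostatin M receptor chain, was not tested, with a highest group mean of 0.380 CPM. Il10rb, the second chain of the IL-10 receptor, fell in neutrophils (-1.12 ± 0.19). Of the other ligands Ebi3, a subunit of IL-27 and IL-35, rose in CX3CR1+ macrophages by 1.61 ± 0.27 and in CD9+ macrophages by 1.05 ± 0.27, and Clcf1, a gp130 ligand, fell in CD9+ macrophages (-2.17 ± 0.64) and in neutrophils (-2.28 ± 0.73).

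In neutrophils 1 of 3 kinases, 2 of 8 regulators and 1 of 5 STAT factors fell, where 10.9% of all genes did. These were the kinase Jak2 (-1.66 ± 0.15), the feedback inhibitor Cish (-2.13 ± 0.31), the sheddase Adam17 (-1.56 ± 0.17), which releases IL-6 receptor from cell surfaces, and Stat6 (-1.11 ± 0.16). No kinase, regulator or STAT factor was called over time in the other 3 populations. The Jak2 change differed from those in all 3 other populations by 1.48 to 1.73 (adjusted p 5.3e-05 to 0.00035, edgeR).

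**Figure D5:**
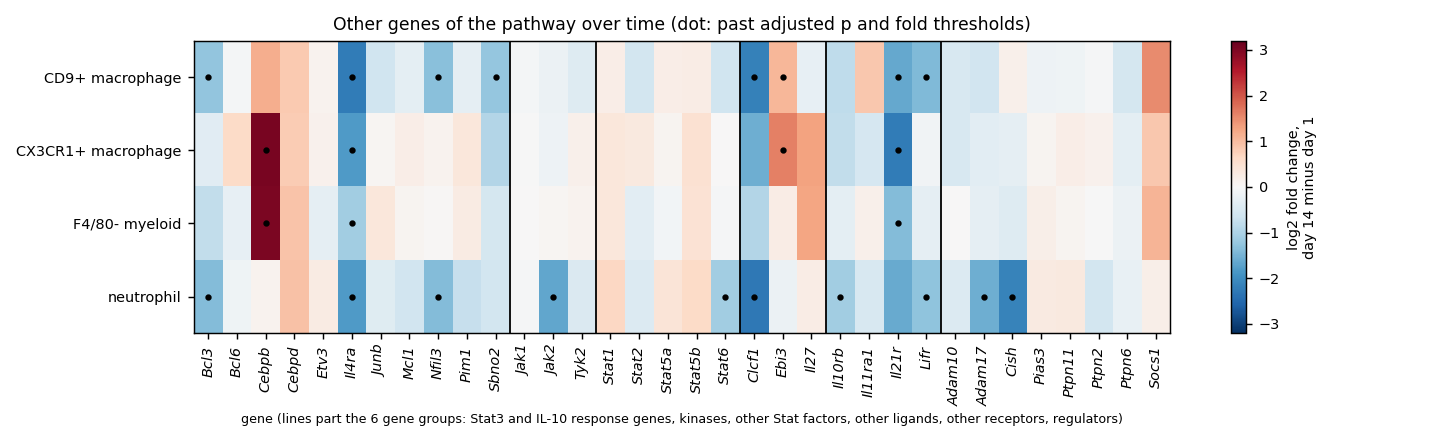
Log2 fold change from day 1 to day 14 (colour) of the 34 tested genes of the wider list in each population, with black lines between gene groups and a dot where the thresholds on adjusted p and fold change were passed. Il4ra carries a dot in all 4 rows, and the kinases, regulators and other STAT factors carry dots only in neutrophils. Of all genes, 14.1% were called in neutrophils and 3.25% to 8.23% in the other populations.

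Between populations on day 1, 17 of the 34 were higher in neutrophils than in CD9+ macrophages and 2 lower, where 21.7% of all genes were higher and 27.9% lower. Against CX3CR1+ macrophages 18 were higher in neutrophils and 3 lower (24.1% and 26.9% of all genes), and against F4/80- cells 22 and 2 (22.6% and 26.4%). On day 14 the counts were 18 and 3 against CD9+ macrophages (19.9% and 29.6%), 19 and 3 against F4/80- cells (21.3% and 27.4%), but 6 and 4 against CX3CR1+ macrophages (20.9% and 27.1%). The genes lower in neutrophils on day 1 included Lifr and Il21r in each of the 3 comparisons, which were higher in CD9+ macrophages by 3.04 and 3.75. Jak1, a kinase of both receptor families, was higher in neutrophils on day 1, the other populations minus neutrophils giving -1.67 to -1.50. CD9+ and CX3CR1+ macrophages differed on day 1 in 1 of the 34, Cish (1.56 ± 0.34, higher in CD9+), against 8.23% of all genes, and on day 14 in 7, against 14.2%, of which Cish alone was higher in CD9+ macrophages and Lifr (CD9+ minus CX3CR1+ -2.28 ± 0.22), Il27, Nfil3, Stat2, Bcl3 and Bcl6 were higher in CX3CR1+ macrophages.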

How the data were processed

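The measurements are counts of reads per gene in 16 libraries, 2 for each of 4 sorted populations on days 1 and 14 after ACLR. Per the study's methods, libraries were made with the SMART-Seq Stranded kit, and the authors removed adapters (Cutadapt 1.15), mapped reads to mm10 (STAR 2.5.3a) and counted them on Gencode M23 genes, and they deposited these counts without normalization. A gene was tested where the mean of 1 or more groups was 3 CPM or higher (11998 of 20200). The fit used edgeR 4.0.16 in R 4.3.3 (TMM factors, glmQLFit, glmQLFTest, a mean for each of the 8 groups, biological coefficient of variation 0.178), and p-values were two-sided with Benjamini-Hochberg adjustment. SE is the absolute log2 fold change divided by the square root of F. Differences in the change over time are interaction contrasts of the same fit. Levels per length used exon lengths from Gencode M21, known for 20193 genes. Correlations are of log2 CPM with a prior count of 2.

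The members, the wider list and the tests were chosen with earlier results of these data known. All 9 members are named whatever their values, with the called genes of the wider list, at most the 8 with the largest change in a comparison, and the 2 tested genes most like each member. Pools are the replicates. By the study's count of mice the 16 libraries cannot each have had a pool of their own, so populations of a day shared mice. Replicate numbers are not stated to pair libraries, and the main fit treated all libraries as independent, also in comparisons between populations. Same-numbered libraries of a day deviated together at r = 0.0132 to 0.144. The replicate block, an alternative fit, grouped libraries by day and number. In simulated counts for CD9+ macrophages over time (11048 genes) the test called 32.3% of 2-fold, 87.9% of 4-fold and 93.4% of 8-fold changes. It made 4 false calls. Whether these values hold for the measured CD9+ libraries was not tested. The measured CD9+ pair of day 1 was the least alike (r = 0.935, against 0.976 to 0.988 in the other pairs). The upper limits for libraries without reads of a gene cover counting error only, and reads without molecular identifiers are not independent molecules. Each SE comes from the edgeR fit and also reflects how far replicate pools differed. Alternatives were DESeq2 1.42.0, other scalings, filters and thresholds, a replicate block, and leaving out each library.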

Additional observations from a re-analysis of the deposited data

Results flagged for a closer look

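The following 15 differences between populations in the change from day 1 to day 14 passed the interaction test (edgeR, Benjamini-Hochberg adjusted over 11998 genes), and they are given as values. They are log2 differences between the 2 changes, each change coming from 2 libraries against 2, and comparisons with a population in common share its libraries. Of the 15, 9 were called in every alternative fit that tested them and 6 were not.

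Between CD9+ and CX3CR1+ macrophages the change of Il6 differed by 2.46 (adjusted p = 0.0095), that of Il6ra by -1.43 (adjusted p = 0.00088) and that of Il6st by -1.41 (adjusted p = 0.0083). The calls of Il6 and Il6st were lost in 3 and 2 of 26 alternative fits. Between CD9+ macrophages and F4/80- cells the change of Osm differed by -1.25 (adjusted p = 0.013), a call lost in 6 of 27 fits. Between CD9+ macrophages and neutrophils the change of Osm differed by -1.40 (adjusted p = 0.0012), that of Il6st by 1.87 (adjusted p = 0.0025) and that of Il10ra by 1.41 (adjusted p = 0.0014).

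Between CX3CR1+ macrophages and neutrophils the change of Lif differed by 3.83 (adjusted p = 0.026), that of Il6ra by 1.28 (adjusted p = 0.00035), that of Il6st by 3.28 (adjusted p = 1.5e-05) and that of Il10ra by 2.17 (adjusted p = 2.5e-05). Between F4/80- cells and neutrophils the change of Lif differed by 3.79 (adjusted p = 0.036), that of Il6st by 2.84 (adjusted p = 5.5e-05), that of Il10ra by 2.03 (adjusted p = 5.2e-05) and that of Socs3 by -1.50 (adjusted p = 0.017). The call of Socs3 was lost in 6 of 27 fits. The calls of Lif were lost in 6 of 26 fits against CX3CR1+ macrophages and in 9 of 26 against F4/80- cells, with values of 2.85 to 6.78 and 2.82 to 6.74.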

How the results depend on the processing

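Of the members, 11 calls were made over time, 23 between populations on day 1, 27 on day 14 and 15 for the difference of the time changes, and 186 for the wider list in the time and population comparisons. Without a fold threshold the calls over time were 18 and those of the wider list 301. With the filter applied in every group, which tests fewer genes, the counts were 6, 13, 15, 8 and 119. Over all genes the calls over time were then 334, 268, 154 and 745 in the same order of populations. Leaving out each library also moved the counts of members and of the wider list, and a group left with 1 library was assumed to vary like the others. Of the 16 genes named as most like a member, 1 was also chosen over the 12 libraries without neutrophils. Scaling by library size alone moved the median of all genes by -0.28 to 0.61, and upper quartile scaling by -0.10 to 0.30, chiefly in comparisons with neutrophils.

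The replicate block within each day changed 2 calls of members, Lif (-2.24, adjusted p = 0.076) and Osm (-0.98) in CD9+ macrophages over time, so that 9 calls remained over time by count, and the others stood at 23, 27, 15 and 185 (edgeR). Changes that were not called reversed their sign in some fits. With the replicate block Lif was at 0.37 in CX3CR1+ macrophages and 0.21 in F4/80- cells and Stat3 at 0.03 in neutrophils, and without a filter Stat3 was at 0.00 there. Leaving out libraries gave -0.48 to 0.18 and -0.53 to 0.21 for Lif in these populations, -0.16 to 0.07 for Stat3 in neutrophils, -0.40 to 0.08 for Il6 in CX3CR1+ macrophages and -0.04 to 0.22 for Il10ra in F4/80- cells. The causes were not tested. At these depths a gene near 3 CPM rests on few reads, which limits Lif, Il10 and, in neutrophils, Il6 and Il6st.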
